A study of Arabidopsis thaliana with 4 samples.

Results

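SWEET1 to SWEET8 are the Arabidopsis thaliana genes of SWEET clades I and II, the clades whose proteins mainly carry hexoses. They were chosen by name: a probe set qualified when it had a single gene whose symbol or synonym in the gene annotation table is SWEET1 to SWEET8. All 8 genes had exactly 1 such probe set, 3 in clade I and 5 in clade II, out of 13350 different genes named in this way; the array table held 22746 probe sets. SWEET5 is listed there under its other name, AtVEX1. The samples were the aerial parts of seedlings taken 2 weeks after germination and grown aseptically in long days on solid medium that contained sucrose. The control group was wild type Col-0 with 2 biological replicates, and the other group was aln-1, a mutant allele of the allantoinase gene ALN in the same Col-0 background, also with 2 biological replicates. Allantoinase hydrolyses allantoin in purine breakdown, and the mutant accumulates allantoin. Transcripts were measured on Affymetrix ATH1 arrays, 1 array per replicate. The labels name no treatment, mutant and control share medium, light and harvest stage, and the comparison of aln-1 with wild type is the only one the design holds.

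SWEET proteins are small membrane proteins that let sugars pass along their concentration gradient, in or out of a cell or a compartment, without proton coupling. Clades I and II carry mainly glucose and other hexoses, clade III mainly sucrose, and clade IV mainly fructose across the vacuole membrane. In leaves and stems sugar leaves cells through SWEETs before it is loaded into the phloem or taken up by neighbouring cells, and several members act in flowers, nectaries, pollen and seeds.

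The deposited values are log ratios of each probe set to its own median over the 4 arrays. They show how the arrays of a gene differ from each other, and the level of a gene, or of 1 gene against another, is not in them. The log base, unstated in the labels and the table, was taken as 2, and the folds below rest on it. Array medians lay between -0.04 and 0.04 on this scale, and interquartile ranges between 0.37 and 0.56, widest for aln-1 replicate 2. The ALN signal was 1.59 and 2.03 on the wild type arrays and -1.59 and -1.72 on the aln-1 arrays, a difference of -3.46 (SE 0.22, limma adjusted p = 0.0580). The sources used here do not place the aln-1 insertion against the probes of ALN. By the approximate brightness classes described below, all 5 measured leaf mesophyll markers were bright, with signals of at least 256 on the dimmest array. In these whole aerial parts fewer cells of a type and less RNA per cell cannot be told apart.

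SWEET4 stood furthest from its replicate spread, with a higher signal in aln-1, and SWEET1 was the clade I gene whose aln-1 arrays both lay below its wild type arrays. All 5 clade II genes had a mean difference, aln-1 minus wild type, above 0, from 0.50 to 1.56 on the log2 scale with a median of 1.26. The 3 clade I genes were spread from -0.94 to 0.71 with a median of -0.09. Over all 22746 probe sets the median difference was -0.08, and 44% had a difference above 0. In the limma test with Benjamini-Hochberg adjustment over all probe sets, 0 of the 8 genes passed an adjusted p of 0.05, which 0.255% of all probe sets did. At an unadjusted limma p under 0.05 there were 2 of the 8, SWEET4 and SWEET5, both higher, beside 23.4% of all probe sets in either direction and 11.1% higher. The 2 aln-1 arrays did not overlap the 2 wild type arrays for SWEET4, SWEET5 and SWEET7, which were higher, beside 25.2% of all probe sets, and for SWEET1, which was lower, beside 34.9%. That is 4 of 8 genes, beside 60.1% of all probe sets in either direction, so separation of the arrays alone does not set these genes apart from the rest. A mean at least 2-fold higher in aln-1 was seen for SWEET4, SWEET7 and SWEET8, 3 of 8, beside 10.9% of all probe sets. For SWEET8 it rested on wild type replicate 2, without which the difference was -0.78. SWEET7 was in the dim class described below, where 17.5% of probe sets were at least as high.

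**Figure D1:**
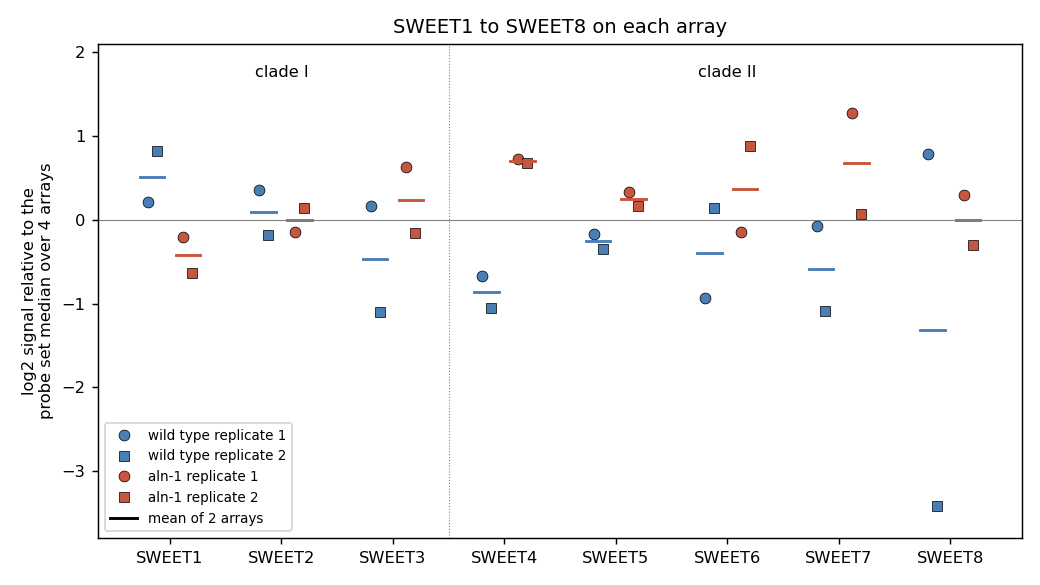
Signal of SWEET1 to SWEET8 on each of the 4 arrays, as log2 relative to the median of the probe set, with blue for wild type, red for aln-1, circles for replicate 1, squares for replicate 2 and bars for the mean of 2 arrays. The aln-1 arrays of SWEET4 lie together at 0.72 and 0.67, above both wild type arrays, and wild type replicate 2 of SWEET8 lies at -3.42, far below the other arrays.

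SWEET4 (AT3G28007) encodes a plasma membrane hexose carrier of the vasculature. Its signal was -0.67 and -1.05 on the wild type arrays and 0.72 and 0.67 on the aln-1 arrays. The aln-1 arrays were both above the wild type arrays and within 0.05 of each other. Means were -0.86 ± 0.26 (SD, n = 2) for wild type and 0.70 ± 0.03 (SD, n = 2) for aln-1. The difference was 1.56 (SE 0.19), or 2.95-fold, with a 95% limma interval from 1.97-fold to 4.41-fold. Each aln-1 array was at least 2.55-fold above each wild type array. SWEET4 was the only 1 of the 8 members at least 2-fold higher in every one of the 4 array pairs, beside 4.67% of all probe sets. Its limma adjusted p over all probe sets was 0.0881, above the threshold. It was 0.0283 with variance priors fitted within brightness classes and 0.0399 without the dim class, and between 0.0822 and 0.297 in the other 8 alternatives.

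SWEET5 (AT5G62850), known as VEX1 from the vegetative cell of pollen, carries glucose. It was at -0.16 and -0.35 in wild type and at 0.33 and 0.16 in aln-1. The arrays of the genotypes did not overlap, and those of 1 genotype were 0.18 apart in wild type and 0.16 in aln-1. The difference was 0.50 (SE 0.16), or 1.42-fold, with a 95% interval from 1.02-fold to 1.97-fold and a limma adjusted p of 0.203. Its within-genotype SD of 0.12 was the smallest of the 8 members.

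SWEET7 (AT4G10850) also carries glucose. It was at -0.07 and -1.09 in wild type and at 1.28 and 0.07 in aln-1. The genotypes did not overlap, but wild type replicate 1 and aln-1 replicate 2 were only 0.15 apart, 1.11-fold, while arrays of 1 genotype differed by 1.02 and 1.21. The difference of 1.26 (SE 0.62) or 2.40-fold had a 95% interval from 0.654-fold to 8.78-fold and a limma adjusted p of 0.322. Leaving out wild type replicate 1 or 2 gave 1.77 or 0.75, and leaving out aln-1 replicate 1 or 2 gave 0.66 or 1.86.

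SWEET6 (AT1G66770) was at -0.94 and 0.14 in wild type and at -0.14 and 0.89 in aln-1. The genotypes overlapped, since aln-1 replicate 1 lay below wild type replicate 2. The difference was 0.77 (SE 0.59) with a 95% interval from 0.499-fold to 5.85-fold and a limma adjusted p of 0.484. It moved to 0.23 or 1.31 when wild type replicate 1 or 2 was left out, and to 1.29 or 0.26 when aln-1 replicate 1 or 2 was.

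SWEET8 (AT5G40260), also named RUPTURED POLLEN GRAIN1 for its part in making the pollen wall, was the least reproducible member. It was at 0.78 and -3.42 in wild type and at 0.30 and -0.30 in aln-1. Both aln-1 arrays lay between the wild type arrays, which were 4.20 apart. The difference of 1.32 (SE 1.65) rested on wild type replicate 2, and without that array it was -0.78. Without wild type replicate 1 it was 3.42. The 95% interval with all 4 arrays ran from 0.0805-fold to 77.5-fold, and the limma adjusted p was 0.657.

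SWEET1 (AT1G21460) encodes a plasma membrane glucose carrier. It was at 0.21 and 0.82 in wild type and at -0.21 and -0.64 in aln-1. Both aln-1 arrays lay below both wild type arrays, and the nearest pair of opposite genotype was 0.42 apart, against 0.62 and 0.43 between arrays of 1 genotype. Means were 0.52 ± 0.43 (SD, n = 2) for wild type and -0.42 ± 0.31 (SD, n = 2) for aln-1. The difference was -0.94 (SE 0.32), or a ratio of aln-1 to wild type of 0.521 with a 95% interval from 0.269 to 1.01. The limma adjusted p was 0.217 and the unadjusted p 0.0523. With each array left out in turn the difference stayed below 0, between -1.25 and -0.63.

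SWEET2 (AT3G14770), a glucose carrier of the vacuole membrane known from roots, showed no difference larger than its spread. It was at 0.36 and -0.18 in wild type and at -0.15 and 0.15 in aln-1, so both aln-1 arrays lay between the wild type arrays. The difference was -0.09 (SE 0.27) with a limma adjusted p of 0.864. The 95% interval from 0.536-fold to 1.65-fold leaves room for changes in either direction within those bounds. The sign turned when wild type replicate 1 was left out, at 0.18, or aln-1 replicate 1, at 0.057. Leaving out wild type replicate 2 or aln-1 replicate 2 gave -0.36 or -0.23.

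SWEET3 (AT5G53190) was at 0.16 and -1.102 in wild type and at 0.63 and -0.16 in aln-1. The genotypes overlapped, with wild type replicate 1 above aln-1 replicate 2. The difference was 0.71 (SE 0.59) with a 95% interval from 0.476-fold to 5.60-fold and a limma adjusted p of 0.517. Leaving out wild type replicate 1 or 2 gave 1.34 or 0.075, and leaving out aln-1 replicate 1 or 2 gave 0.31 or 1.104.

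**Figure D2:**
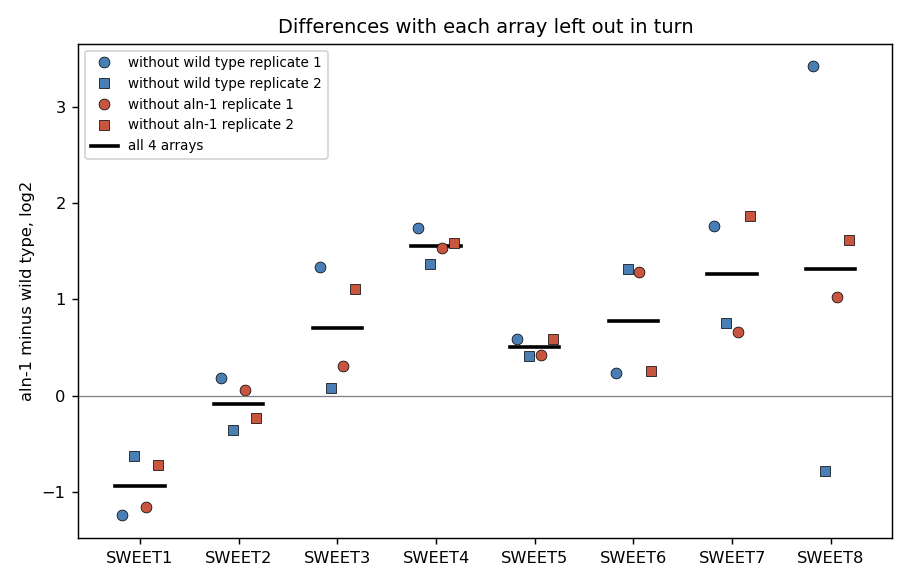
Difference of each member, aln-1 minus wild type on the log2 scale, with all 4 arrays (black bars) and with each array left out in turn (points). SWEET4, between 1.37 and 1.75, and SWEET5, between 0.41 and 0.59, stay near their values. SWEET1 moves more, between -1.25 and -0.63, but stays below 0, while SWEET8 runs from -0.78 to 3.42.

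The members differed in how closely replicates matched and in how bright their probe sets were. A single precision number keeps a coarser rounding step the larger it is, so the finest step over the 4 arrays gives an approximate brightness class for the dimmest array. SWEET1 and SWEET4 were in the bright class, which belongs to signals of at least 256. SWEET2, SWEET3, SWEET5, SWEET6 and SWEET8 were in the middle class and SWEET7 in the dim class, which belongs to signals below 16. Within-genotype SDs were 0.19 for SWEET4 and 0.38 for SWEET1, beside a median of 0.14 in the bright class. They were 0.12 for SWEET5, 0.31 for SWEET2, 0.74 for SWEET6, 0.75 for SWEET3 and 2.12 for SWEET8, beside 0.27 in the middle class. The value for SWEET7 was 0.79, beside 0.97 in the dim class. Of the 10327 bright probe sets, 2.08% had a difference at least as high as SWEET4 and 4.27% had 1 at least as low as SWEET1. In the middle class 23.1% were at least as high as SWEET5 and 7.44% at least as high as SWEET8, and in the dim class 17.5% were at least as high as SWEET7. These shares are ranks among the probe sets and no test.

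**Figure D3:**
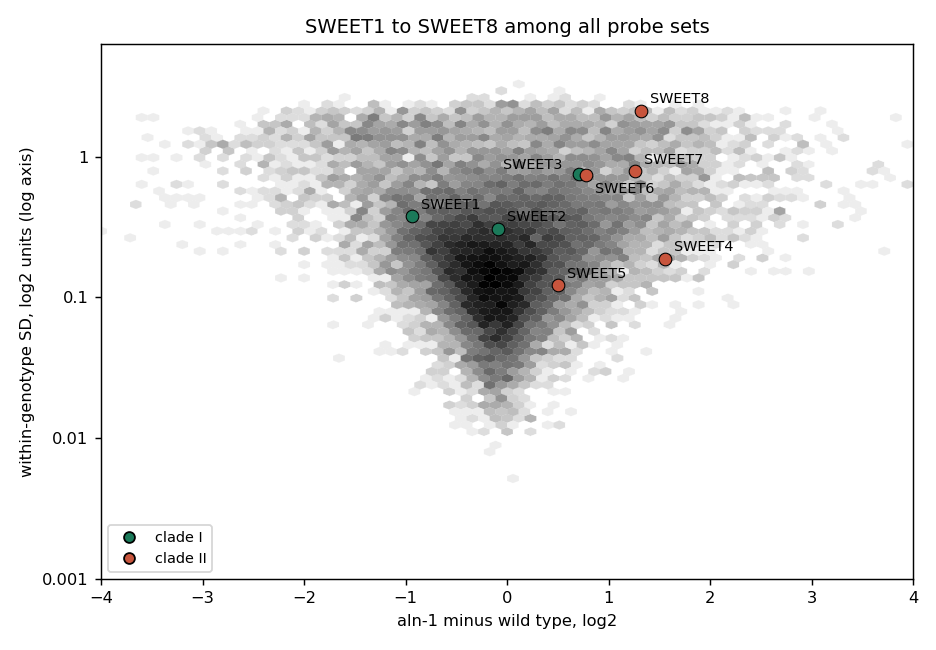
Difference, aln-1 minus wild type (log2, horizontal), against the within-genotype SD (log2 units on a log axis) for all probe sets in grey, darker where more lie, with the 8 members marked by clade; 190 probe sets lie beyond the axes. SWEET4 lies at 1.56 with an SD of 0.19, inside the grey field, with probe sets of similar spread further right. Of all probe sets 5.48% have a difference at least as high. SWEET8 lies near the top with an SD of 2.12.

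Genes whose 4 values were closest to those of a separated member, by Euclidean distance over the 4 arrays among probe sets of a single gene, were taken as the most alike patterns. For SWEET4 these were AT3G29310 at a distance of 0.09, AT1G20220 at 0.09 and AT4G03630 at 0.11, with differences of 1.49, 1.49 and 1.56. For SWEET1 they were AT5G67430 at a distance of 0.10, AT4G08790 at 0.16 and AT5G55620 at 0.17, with differences of -1.04, -1.01 and -0.87. SWEET5 was closest to AT3G29630, AT4G09490 and AT1G27090, at distances from 0.03 to 0.07. SWEET7 was closest to GLC (AT1G65450) at 0.11, then to AT3G13140 and AT4G08420 at 0.29 and 0.33. With 4 arrays per pattern, closeness describes these arrays only, and limma adjusted p-values of the 12 genes lay between 0.0860 and 0.394.

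The other SWEET genes were measured for 6 of 7 members of clade III and both members of clade IV. SWEET16 and SWEET17, fructose carriers of the vacuole membrane, were higher in aln-1 by 2.18 (SE 0.59) and 0.89 (SE 0.28). SWEET13 and SWEET14, sucrose carriers, were higher by 1.32 (SE 0.21) and 1.51 (SE 0.42). For these 4 genes the aln-1 arrays lay above the wild type arrays, as for SWEET4, SWEET5 and SWEET7, and as for 25.2% of all probe sets. SWEET11, which exports sucrose for phloem loading in leaves, differed by -0.21 (SE 0.14), SWEET9, a nectary sucrose carrier, by 0.12 (SE 0.50), SWEET10 by -0.36 (SE 1.11) and SWEET15, a senescence-associated gene, by 0.87 (SE 0.74). None of the 8 passed the limma threshold, with adjusted p from 0.104 to 0.905, and 4 of the 8 had an unadjusted limma p under 0.05, all higher, beside 23.4% of all probe sets in either direction and 11.1% higher. Over the 16 measured SWEET genes 12 had a difference above 0, with a median of 0.82; for the 8 genes of clades III and IV the median was 0.88, and for SWEET1 to SWEET8 it was 0.74. Whether clades differ from each other was not tested.

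**Figure D4:**
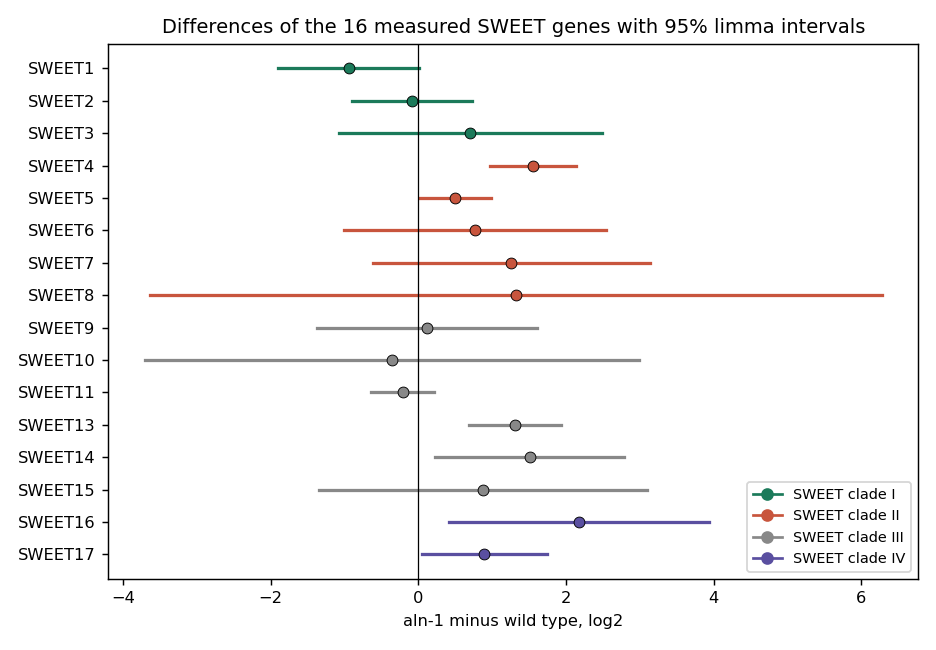
Difference, aln-1 minus wild type on the log2 scale, of the 16 measured SWEET genes (points) with 95% limma intervals (lines), coloured by clade. The interval of SWEET4 runs from 0.98 to 2.14, that of SWEET5 from 0.02 to 0.98, and those of the other 6 genes of clades I and II include 0.

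Other genes that move or use sugars were taken from lists of carriers and enzymes. Of the 54 listed sugar carriers outside clades I and II, 20 had a named probe set, the 8 other SWEETs included. Of these 20, 0 passed the limma threshold, and 5 had an unadjusted limma p under 0.05, beside 23.4% of all probe sets. There were 4 higher and 1 lower, beside 11.1% and 12.3% of all probe sets. All 4 higher were SWEETs of clades III and IV, and the 1 lower was SFP2. No measured STP, vacuole and plastid, or polyol and inositol carrier was higher at that p. The median difference of the 20 was 0.12. The proton-coupled STP hexose carriers had 4 of 14 measured, with a median of -0.0034 and 2 on each side of 0. Of the vacuole and plastid carriers 6 of 12 were measured, with a median of 0.13: the vacuolar monosaccharide carrier genes TMT1, TMT2 and TMT3 differed by -0.25 (SE 0.13), 0.28 (SE 0.36) and 0.64 (SE 0.68), and SFP2 and SFP1, monosaccharide carrier genes of the ERD6 family, by -0.90 (SE 0.29) and 0.25 (SE 0.15). Without aln-1 replicate 2 SFP2 was at -0.56, and without wild type replicate 1 SFP1 was at 0.14. Of the polyol and inositol carriers 2 of 10 were measured, with a median of -0.15. Of the SUC sucrose carriers 0 of 9 were measured by a named probe set.

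Of 33 listed enzymes of sucrose and hexose metabolism 9 were measured, with a median difference of 0.42, and 0 passed the limma threshold, with 3 of 9 at an unadjusted p under 0.05, 2 higher and 1 lower, beside 11.1% higher and 12.3% lower over all probe sets. By list, 2 of 16 invertases and sucrose synthases were measured with a median of 0.12, 6 of 13 hexokinases and fructokinases with 0.43, and 1 of 4 sucrose phosphate synthases. ATSPS4F, a sucrose phosphate synthase gene, differed by -1.24 (SE 0.23), from 0.44 and 0.82 in wild type to -0.44 and -0.77 in aln-1. The gene cwINV6, listed with the invertases by its name only, differed by -0.68 (SE 0.23). The 2 listed genes that were higher at an unadjusted limma p under 0.05 are known in the gene table by locus only: AT3G59480 differed by 1.20 (SE 0.22) and AT1G62660 by 0.92 (SE 0.18). APL3, which encodes a subunit of the starch synthesis enzyme ADP-glucose pyrophosphorylase and responds to sugar, was the 1 measured of 13 sugar-responsive genes and differed by 1.07 (SE 0.20). In limma, adjusted p-values of ATSPS4F, cwINV6 and APL3 ranged from 0.121 to 0.220.

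Markers of tissues and cell types were read from the same arrays. Of 7 root markers 3 were measured, and all 3 were higher in aln-1: EXPA7 and EXPA18, expansin genes of root hairs, by 1.43 (SE 0.36) and 1.14 (SE 0.25), and PYK10, a beta-glucosidase gene of roots, by 0.20 (SE 0.13). The mean of these 3 was -0.67 and -0.31 on the wild type arrays and 0.30 and 0.57 on the aln-1 arrays. The mean of the 5 clade II genes was -0.21 and -1.15 on the wild type arrays and 0.50 and 0.30 on the aln-1 arrays; without SWEET8, which is at -3.42 on wild type replicate 2, it was -0.46 and -0.59 against 0.55 and 0.45. Of 8 leaf mesophyll markers 5 were measured, and all 5 had differences below 0, with a median of -0.45: SBPASE, PRK and RCA of carbon fixation differed by -0.92, -0.88 and -0.45. LHCB4.1 and PSAE-1 differed by -0.19 and -0.12, and their arrays overlapped between the genotypes. The mean of these 5 was 0.30 and 0.16 in wild type and -0.14 and -0.43 in aln-1. Over all 22746 probe sets 10011 had a difference above 0 and 12701 below 0. The 1 measured guard cell marker of 3, FMA, differed by -0.44 (SE 0.14). The 1 measured pollen and anther marker of 7, AT5G07230, was at 1.82 and -0.51 in wild type and at 0.36 and -0.36 in aln-1, while of 5 phloem companion cell and 3 seed markers 0 were measured. No marker passed the limma threshold. By brightness class PYK10 and the 5 leaf markers were bright, EXPA7, EXPA18 and FMA middle and AT5G07230 dim, and no summed level can be had from centred values. The part of these tissues in the SWEET differences was not tested.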

How the data were processed

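MAS5 made the signals, per the submitters' processing notes; the version, scaling target and detection calls are not given. The authors deposited 1 table of 22746 probe sets on 4 arrays. The deposited values are log2 ratios to the median of each probe set: the middle pair of its 4 values added up to 0 within 1.4e-06 in every row. The log base was taken as 2 from rounding steps. With natural logarithms the bright class, 45.4% of probe sets, would need signals of at least 2981.

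The deposited log2 values went unchanged into limma 3.58.1 under R 4.3.3: lmFit on genotype, then eBayes, two-sided, with Benjamini-Hochberg adjustment over all 22746 probe sets and a threshold of 0.05. SEs and 95% intervals are moderated. The main fit used no dim filter, pseudocount or variance trend, since the values hold no signal level; approximate brightness classes from rounding steps served in alternatives. On simulated data the fit was checked only for returning the mean of planted differences, so that check says nothing about the calls. With 2 arrays against 2, no two-sided exact permutation test of 1 gene can give less than p = 0.333, and none is printed. The number of arrays limits the precision.

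The platform annotation gave gene names, which were brought up to date by gene identifier with a RefSeq table (assembly TAIR10.1), used only for names and gene order. That annotation gave 1 gene for 13513 probe sets and several for 503; the remaining 8730 carry no name. The 19 lists held 139 different genes, all in that table, of which 49 had a named probe set. The 15 measured entries known there by locus only are counted in their lists and given no role beyond the name of the list. Members and lists were chosen with earlier results of these data known. Named genes are the members, ALN, up to 3 genes per list and direction with the largest difference, the other SWEETs, and the 3 most alike patterns of each separated member. Alternatives were array centring, a replicate block, a robust prior, priors within brightness classes, leaving out dim or equal-valued probe sets, other thresholds and each array left out. Over all probe sets same-numbered arrays did not deviate together, with a correlation of 0.0209. Members varied in this. With the block the SE fell from 0.59 to 0.22 for SWEET3, from 0.59 to 0.15 for SWEET6 and from 0.62 to 0.17 for SWEET7. It also fell for SWEET8, from 1.65 to 1.19, and changed little for SWEET4 and SWEET5. For SWEET1 and SWEET2 it rose, from 0.32 to 0.37 and from 0.27 to 0.31.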

Additional observations from a re-analysis of the deposited data

How the results depend on the processing

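The number of limma calls over all probe sets, 58 of 22746, was not stable: it was 0 with the replicate block, 0 with a robust prior, 0 at a threshold of 0.01 and 0 to 0 with each array left out, where 2953 to 5326 probe sets had an unadjusted p under 0.05 (4460 with the block and 5084 with the robust prior). It rose to 1077 with priors within brightness classes, 1078 at a threshold of 0.1 and 882 with dim probe sets left out, and was 82 with arrays centred and 66 without equal values. Fewer arrays, or the block, leave fewer degrees of freedom; for the other changes the cause was not tested. Of 79 pairs of a member and an alternative, 74 stayed on the same side of the threshold with the same sign. That count says little about stability. The block, the robust prior, the brightness priors and leaving out dim or equal-valued probe sets cannot change a difference. The 3 turned signs all came with an array left out, and most members lay far above the threshold. SWEET4 newly passed at 1.56 with brightness priors and at 1.56 without the dim class, as did ALN (limma adjusted p 0.0228 and 0.0249). AT3G29310 (0.0462 and 0.0393) also passed under both, and AT1G20220 (0.0451) without the dim class. AT3G29310 and AT1G20220 were picked because their 4 values lay closest to those of SWEET4, so their passing with it is no separate result. The adjusted p of SWEET4 was 0.190 with the replicate block, under which none of the 8 passed. SWEET2 ranged from -0.36 to 0.18 and SWEET8 from -0.78 to 3.42 with each array left out. SWEET7 and SWEET9, in the dim class, have no value without that class, like other dim genes. Among other named genes, those that turned with each array left out were SWEET15 (-0.044 to 1.79), SWEET10 (-1.47 to 0.76), SWEET9 (-0.49 to 0.72), AT3G19940 (-0.68 to 0.40), TMT3 (-0.22 to 1.49), TMT2 (-0.13 to 0.69), AT2G18480 (-0.16 to 0.11, and 0.030 with arrays centred), AT1G66430 (-0.45 to 0.14) and AT5G07230 (-1.82 to 0.51). No depth or signal over background is in the values, so how far SWEET7 and SWEET8 lie above background is unknown.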

Other observations

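The nearest measured genes on either side of each member, 16 in all and at most 5 genes away in the order of the gene table, followed no common direction. In aln-1, 3 of them lay above and 7 below both wild type arrays, beside 25.2% and 34.9% of all probe sets, and 0 passed the limma threshold. Their differences ran from -1.39 for AT1G21440, which lies 2 genes from SWEET1, to 2.57 (SE 0.40) for AT1G66760, the gene next to SWEET6. These were picked after their values were seen. AT1G66760 was at -1.89 and -0.98 in wild type and at 0.98 and 1.29 in aln-1, while SWEET6 overlapped between the genotypes. On 1 side of SWEET4, AT3G28020, 2 genes away, differed by -1.18 (SE 0.34), opposite in sign to SWEET4. On the other side AT3G27980, 4 genes away, differed by -0.51 (SE 0.41). It was at 1.01 on wild type replicate 2 and at 0 on every other array, so that difference rested on 1 array. The neighbours of SWEET8, AT5G40250 and AT5G40270, differed by -0.05 (SE 0.13) and 0.08 (SE 0.18). Some neighbours did share the direction of their member. Both neighbours of SWEET1 were lower in aln-1 without overlap, AT1G21480 by -0.68 (SE 0.26). For SWEET7, AT4G10880 was higher without overlap, by 1.21 (SE 0.73), while AT4G10843 overlapped at -0.34. For SWEET5, AT5G62840 was lower without overlap, by -0.98 (SE 0.16), and AT5G62865 overlapped at 0.05.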
